A study of Mus musculus with 6 samples.

Results

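The noncanonical NF-κB pathway was followed through 10 genes in C2C12 cells, a mouse myoblast line that exits the cell cycle and fuses into myotubes when serum is changed. The genes were chosen by name, with earlier results of these data known. They were the subunits Nfkb2 and Relb, the kinases Map3k14 (NIK) and Chuk (IKKα), and the receptors Tnfrsf12a (Fn14) and Ltbr. The TRAF and cIAP genes Traf2, Traf3, Birc2 and Birc3 were included as well. All 10 symbols were among the 43074 genes of the count table, and 9 were among the 17433 genes that passed the filter on low counts. Birc3 did not.

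RNA was sequenced from 3 groups of wild-type C2C12 cells with 2 libraries each. Day 0 cells were untreated and in growth medium with fetal bovine serum. Cells of the other groups spent 4 days in differentiation medium with horse serum, which held either the vehicle DMSO or 1 mM 4-PBA (4-phenylbutyrate), a short aromatic fatty acid that is used to relieve stress of the endoplasmic reticulum and also inhibits histone deacetylases. Time, medium and vehicle all differ between day 0 and DMSO at day 4 and cannot be told apart, and the vehicle dose and whether replicates were separate cultures are not given in the sources used here. If they were not, p-values measure only a technical spread between libraries.

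In the noncanonical pathway, TRAF3 and TRAF2 hold the kinase NIK to the ubiquitin ligases cIAP1 and cIAP2 (Birc2 and Birc3), and newly made NIK is degraded. Receptors such as Fn14, which binds TWEAK (Tnfsf12), and the lymphotoxin-β receptor draw TRAFs and cIAPs away. NIK then accumulates, activates IKKα and leads to the processing of p100, the product of Nfkb2, into p52, which enters the nucleus with RelB. In skeletal muscle, TWEAK and Fn14 are known for their part in myoblast proliferation and in muscle wasting. NIK turnover and p100 processing are protein steps, and only RNA was measured here.

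Total counts per library ranged from 47908926 to 74697397. The chi-square of the counts between replicates, per degree of freedom, was 3.83 at day 0 and higher at day 4, so replicates were not one library deposited again. The line behaved as labelled: the summed level of 7 myotube markers was 86.1 to 91.0 CPM (counts relative to library size after TMM scaling) at day 0 and 4798 to 5188 CPM at day 4. The 7 markers of cycling cells summed to 2055 and 2096 CPM at day 0, 640 and 549 CPM in DMSO replicates 1 and 2, and 677 and 689 CPM in 4-PBA replicates 1 and 2. Every marker of leukocytes, endothelium, adipocytes, neural cells and epithelium stayed under 1 CPM in every library, and Sox10 was at 0 in all.

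Nfkb2 is itself a known NF-κB target. Its promoter is printed with that of Traf3, the other gene with a match to the NF-κB motif, and with that of Tnfrsf12a as 1 of the 7 genes without a match. Nfkb2 and Traf3 were called higher at day 4 with DMSO, and so were Map3k14, Birc2 and Traf2, which were without a match. The RefSeq promoter table (GRCm38.p6) held 9 of the 10 genes, without Relb. The 250 bases before each start were searched on both strands for the 10-base NF-κB consensus motif, and overlapping matches were each counted. A share of 8.23% of the 27025 genes in the RefSeq table had a match in at least 1 window, and of the 9 genes 2 had one, Nfkb2 and Traf3. Over all 32851 windows the share was 7.25%. Capitals mark the matches, and the last base printed is the one before the start.
Nfkb2, first of 3 starts, chr19:46304487-46304736, + strand: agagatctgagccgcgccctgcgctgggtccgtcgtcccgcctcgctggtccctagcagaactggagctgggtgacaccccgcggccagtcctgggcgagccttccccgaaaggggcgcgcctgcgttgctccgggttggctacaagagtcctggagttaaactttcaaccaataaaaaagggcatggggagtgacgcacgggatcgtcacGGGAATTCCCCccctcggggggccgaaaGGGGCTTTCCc
Traf3, chr12:111166120-111166369, + strand: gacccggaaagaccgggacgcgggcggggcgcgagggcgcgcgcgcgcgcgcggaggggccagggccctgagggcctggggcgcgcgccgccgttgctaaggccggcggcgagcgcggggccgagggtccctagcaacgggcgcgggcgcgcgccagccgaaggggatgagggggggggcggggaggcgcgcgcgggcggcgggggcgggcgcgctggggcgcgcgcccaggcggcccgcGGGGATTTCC
Tnfrsf12a, chr17:23677450-23677699, - strand: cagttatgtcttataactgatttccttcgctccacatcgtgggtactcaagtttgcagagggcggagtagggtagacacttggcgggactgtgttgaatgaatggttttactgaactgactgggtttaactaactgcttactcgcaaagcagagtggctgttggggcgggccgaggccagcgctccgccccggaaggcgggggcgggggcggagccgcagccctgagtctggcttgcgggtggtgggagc
The first Nfkb2 window held 3 matches. A pair of them, GGGAATTCCC and GGAATTCCCC, overlap and begin 39 and 38 bases before the start, and GGGGCTTTCC begins 11 bases before it. The windows of the other two Nfkb2 starts held 1 match each, GGAATGTCCC and GGGACTTTCC, 236 and 225 bases before those starts. In Traf3 the match GGGGATTTCC ends at the last base before the start. These are matches of letters and not measured binding sites.

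**Figure D1:**
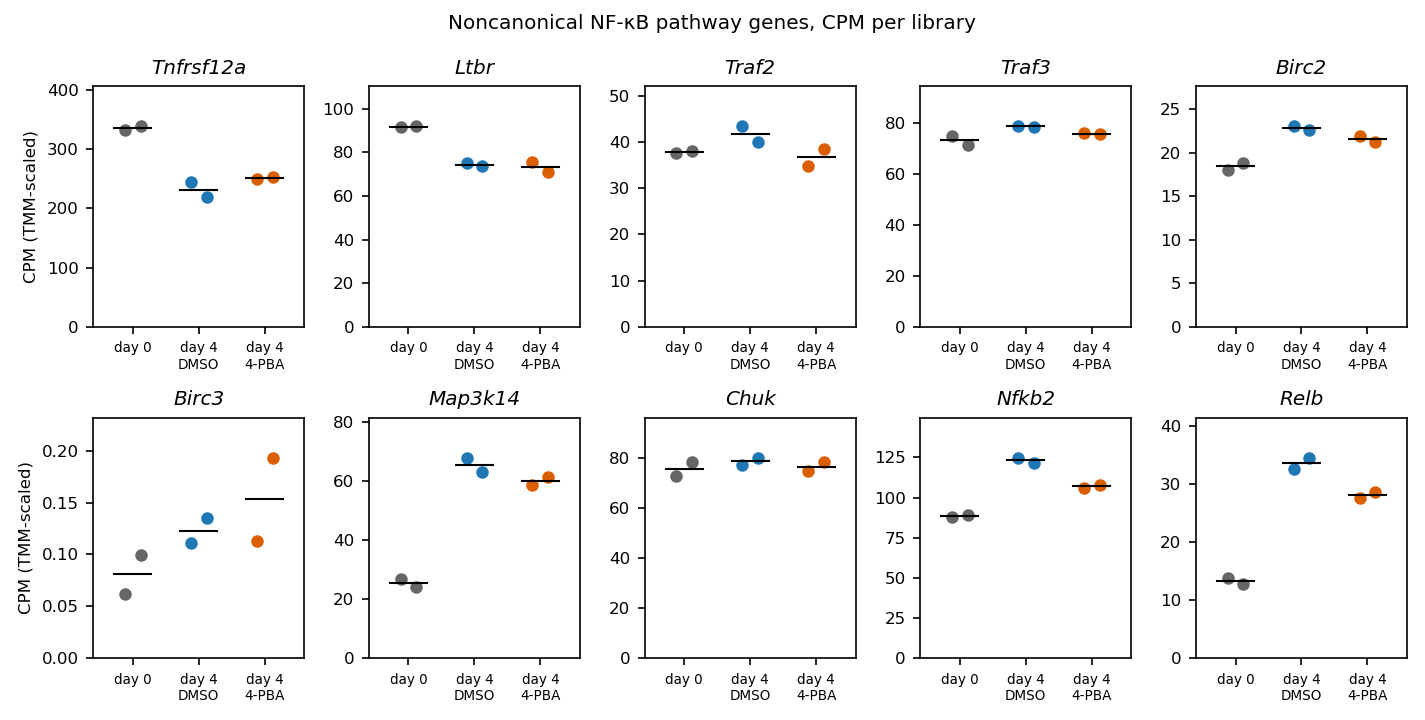
CPM (vertical axis, linear, starting at 0 and scaled per gene) of the 10 noncanonical pathway genes at day 0, at day 4 with DMSO and at day 4 with 4-PBA. Points are the 2 libraries of a group and lines their mean. Map3k14, Nfkb2 and Relb are higher at day 4 and Tnfrsf12a and Ltbr lower. With 4-PBA, Nfkb2, Relb, Map3k14, Birc2, Traf3 and Tnfrsf12a lie between day 0 and DMSO.

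The first comparison, DMSO at day 4 against day 0, addresses how the pathway's transcripts changed as cells differentiated without the drug. The subunit and NIK genes rose and both receptor genes fell. Of the 9 genes tested, 8 were called at an adjusted p-value under 0.05 (edgeR quasi-likelihood test, Benjamini-Hochberg adjustment over all tested genes), 6 higher and 2 lower. That share has to be read against a background in which 66.3% of all 17433 tested genes were called, 33.8% higher and 32.6% lower. At an unadjusted p under 0.05 it was 8 of 9 as well, against 68.3% of all tested genes. The groups did not overlap for 8 of 9, nor for 81.9% of all tested genes. The median log2 fold change of the 9 genes was 0.14 and that of all tested genes 0.023. In bulk RNA, fewer cells that express a gene and less RNA of it per cell cannot be told apart.

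Among the subunits, Relb, which encodes the transactivating partner of p52, stood at 13.9 and 12.9 CPM at day 0 and at 32.6 and 34.5 CPM with DMSO. The groups were far apart relative to their spread. Relb rose 2.52-fold (log2 fold change 1.33, SE 0.0679, adjusted p 8.54e-19). Nfkb2, which encodes p100, stood at 87.6 and 89.1 CPM at day 0 and at 125 and 122 CPM with DMSO. It rose 1.39-fold (log2 fold change 0.48, SE 0.0367, adjusted p 6.96e-14), again with no overlap between groups.

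Among the 9 tested members the largest log2 fold change was that of the kinase gene Map3k14, which encodes NIK. It stood at 26.9 and 24.0 CPM at day 0 and at 67.8 and 63.0 CPM with DMSO, a 2.58-fold rise (log2 fold change 1.37, SE 0.0549, adjusted p 5.90e-21). Chuk, which encodes the IKKα subunit that phosphorylates p100, was not called: it stood at 72.7 and 78.1 CPM at day 0 and at 77.1 and 80.0 CPM with DMSO, so that the groups overlapped. Its log2 fold change was 0.058 with a 95% confidence interval from -0.030 to 0.15 (adjusted p 0.247).

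Of the 4 genes whose products keep NIK low, 3 were tested, and all 3 were called higher, by less than Map3k14. Birc2, which encodes the ubiquitin ligase cIAP1, went from 18.0 and 18.9 CPM to 23.0 and 22.6 CPM (log2 fold change 0.30, SE 0.0686, adjusted p 2.04e-04). Traf2, the adaptor that recruits cIAPs, went from 37.7 and 38.1 CPM to 43.5 and 40.1 CPM (0.14, SE 0.0560, adjusted p 0.0285). Traf3, the adaptor that binds NIK, went from 75.1 and 71.6 CPM to 78.9 and 78.8 CPM (0.11, SE 0.0412, adjusted p 0.0244). The small calls of Traf2 and Traf3 were lost with library sizes left unscaled (adjusted p 0.0779 and 0.0982). They were also lost in the DESeq2 Wald test (0.0961 and 0.0766) and at an adjusted p under 0.01. The edgeR fit of only the 4 libraries compared lost that of Traf3 (adjusted p 0.0505). Over 15 alternatives, Traf2 was called in 9 and Traf3 in 10. Traf2 was also not called without day 0 replicate 1 (0.128), day 0 replicate 2 (0.0827) or DMSO replicate 1, where its log2 fold change was 0.082 (0.246), and Traf3 not without day 0 replicate 2 (0.256).

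Birc3, which encodes cIAP2, was nearly silent. It had 3 and 7 counts in the day 0 libraries, 7 and 10 with DMSO and 7 and 12 with 4-PBA, or at most 0.193 CPM. The exact Poisson 95% intervals, which cover counting error only, ran from 0.619 to 8.77 counts for the lowest library and from 6.20 to 21.0 for the highest, so no difference between groups was detectable at this depth. Per kilobase of exon, the ratio of Birc3 to Birc2 counts was between 0.00313 and 0.00832.

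Both receptor genes fell. Tnfrsf12a, which encodes Fn14, stood at 333 and 339 CPM at day 0 and at 245 and 219 CPM with DMSO, or 0.690 of its day 0 level (log2 fold change -0.54, SE 0.0386, adjusted p 4.15e-11). Ltbr, which encodes the lymphotoxin-β receptor, stood at 91.6 and 92.0 CPM at day 0 and at 75.1 and 73.6 CPM with DMSO, or 0.809 of its day 0 level (-0.31, SE 0.0411, adjusted p 4.74e-08). In neither gene did the groups overlap. The levels of Tnfrsf12a put the 6 libraries in the same order as the summed markers of cycling cells, from day 0 replicate 2 at the top to DMSO replicate 2 at the bottom, and the part of cycling cells in these values was not tested.

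Differentiating cells with and without the drug were compared next, 4-PBA against DMSO at day 4. Nfkb2, Relb and Traf2 were called lower with 4-PBA, with log2 fold changes of -0.20, -0.26 and -0.18. These 3 of 9 tested genes were called against a background of 4.90% of all tested genes, with 2.78% called lower and 2.13% higher. Because the genes were chosen with earlier results of these data known, this share is a description and not a test. At an unadjusted p under 0.05 there were 5 of the 9, against 16.7% of all tested genes. The median log2 fold change of the 9 was -0.081, with 8 of 9 values below 0, and that of all tested genes was 0.0021. The 2 groups did not overlap for 7 of the 9, and for 45.5% of all tested genes. A lean below 0 was not particular to the noncanonical genes. Another 9 genes, of the canonical NF-κB pathway, had a median of -0.088, with all 9 values below 0.

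Nfkb2 stood at 125 and 122 CPM with DMSO and at 106 and 108 CPM with 4-PBA. Both 4-PBA libraries were below both DMSO libraries and above both day 0 libraries. That position was shared by Relb, Map3k14, Birc2 and Traf3. Tnfrsf12a, which fell from day 0 to DMSO, also lay between them with 4-PBA. The share of all tested genes in such a position was not computed. Nfkb2 fell to 0.868 of the DMSO level (log2 fold change -0.20, SE 0.0362, 95% confidence interval -0.28 to -0.13, adjusted p 3.59e-04). It was called under each of 15 alternative settings, with values from -0.22 to -0.19 and adjusted p-values up to 0.0289.

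Relb stood at 32.6 and 34.5 CPM with DMSO and at 27.5 and 28.6 CPM with 4-PBA, also without overlap and also above day 0. It fell to 0.836 of the DMSO level (-0.26, SE 0.0629, 95% confidence interval -0.39 to -0.13, adjusted p 0.00987). The direction held in all 15 alternatives, but the call was lost in 3 fits that left out a library. The log2 fold change was -0.21 (adjusted p 0.0796) without DMSO replicate 2. Leaving out 4-PBA replicate 1 gave -0.23 (0.170), and leaving out 4-PBA replicate 2 gave -0.29 (0.0639). Of the 7 myotube markers, 2 were also called lower with 4-PBA than with DMSO, Mymk (-0.17) and Acta1 (-0.094). The other 5 were not called. Of these, Ckm (-0.17), Tnnt3 (-0.12) and Actn2 (-0.11) were below 0, with no overlap between the groups. Myog (0.0052) and Myh3 (0.018) had values above 0. The median of the 7 was -0.11, with 5 of 7 values below 0. Summed, the 7 stood at 4865 and 5188 CPM with DMSO and at 4798 and 4903 CPM with 4-PBA, so that the groups overlapped. The part of myotube content in the values of Nfkb2 and Relb was not tested.

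Traf2 stood at 43.5 and 40.1 CPM with DMSO and at 34.9 and 38.5 CPM with 4-PBA. The gap between the groups was smaller than the distance between the libraries of either. It was called narrowly (log2 fold change -0.18, SE 0.0558, adjusted p 0.0468), and 11 of 15 alternatives did not call it. Among them were the DESeq2 Wald test (0.113), limma-voom (0.0683), and fits without DMSO replicate 1 (log2 fold change -0.13, adjusted p 0.254) or 4-PBA replicate 1 (-0.12, 0.545).

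For 6 of the tested genes no difference between 4-PBA and DMSO was called. Map3k14 stood at 58.5 and 61.2 CPM with 4-PBA, below both DMSO libraries, with a log2 fold change of -0.13 (95% confidence interval -0.23 to -0.023, adjusted p 0.171). Without DMSO replicate 2 it was called (-0.18, adjusted p 0.0299), and without DMSO replicate 1 its value was -0.074. Birc2 (-0.081, 95% confidence interval -0.22 to 0.056), Traf3 (-0.053, -0.14 to 0.030), Chuk (-0.041, -0.13 to 0.047) and Ltbr (-0.016, -0.0999 to 0.068) had intervals that span 0. For Ltbr the sign turned without 4-PBA replicate 2 (0.029).

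Tnfrsf12a was the only one of these 9 genes with a value above 0 in this comparison. It stood at 245 and 219 CPM with DMSO and at 250.01 and 254 CPM with 4-PBA, so that both 4-PBA libraries were higher, the nearer by a small margin. The log2 fold change was 0.12 (95% confidence interval 0.039 to 0.20, adjusted p 0.0833). It depended on the DMSO library. Without DMSO replicate 1 it was 0.20 (adjusted p 1.30e-06) and without DMSO replicate 2 it was 0.043 (0.579). It was also called with library sizes unscaled (0.0456) and without the filter on low counts (0.0126). DMSO replicate 2 was also the library with the lowest summed markers of cycling cells, 549 CPM. All 7 of these markers had values above 0 in this comparison and 2, Ccna2 (0.21) and Pcna (0.18), were called higher. Their part in the value of Tnfrsf12a was not tested.

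**Figure D2:**
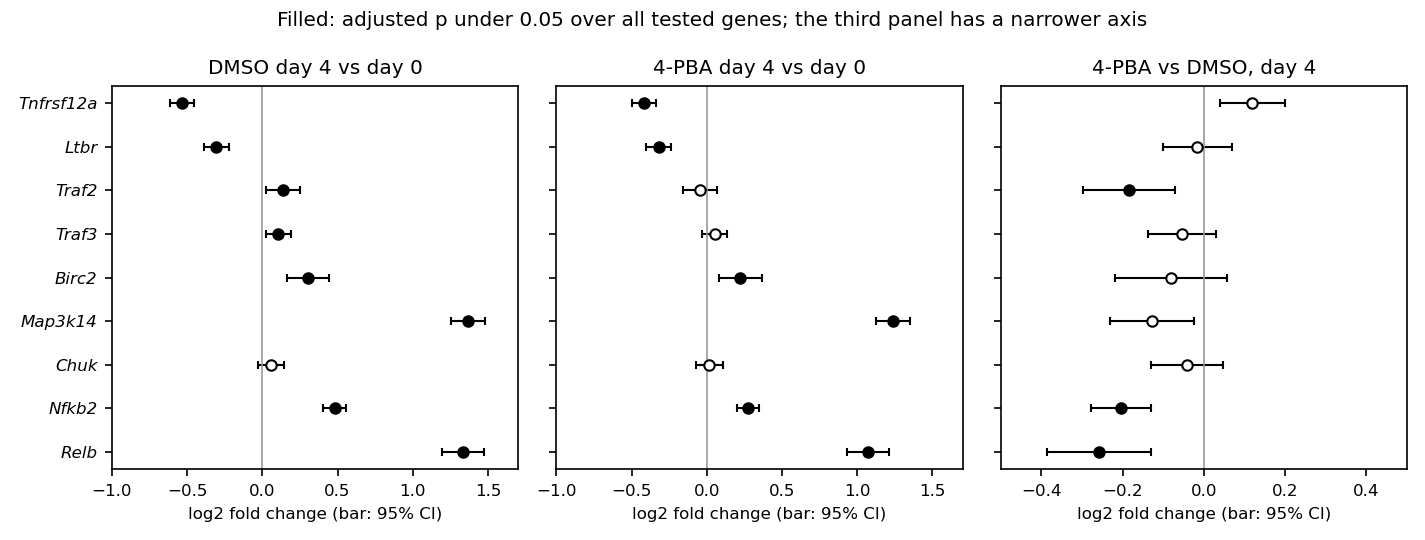
Log2 fold changes (horizontal axis) of the 9 tested genes in the 3 comparisons, with 95% confidence intervals, filled where the adjusted p is under 0.05. Relb and Map3k14 lie above 1 in both comparisons with day 0. Between 4-PBA and DMSO, Nfkb2, Relb and Traf2 are filled, all below 0.

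**Figure D3:**
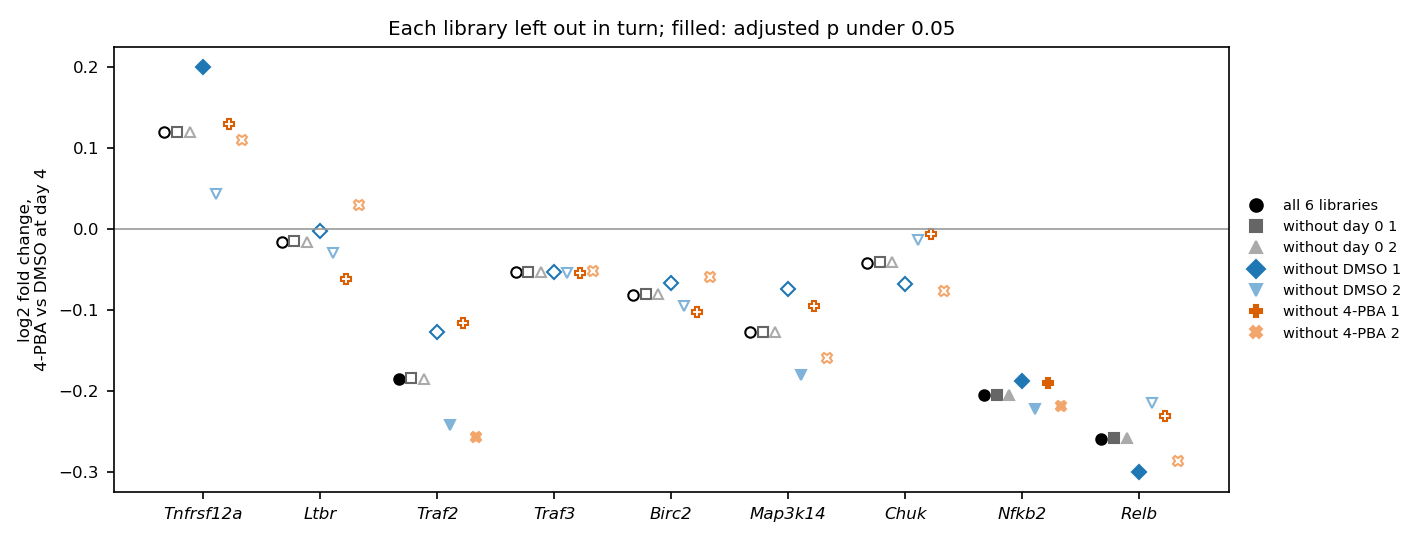
Log2 fold change between 4-PBA and DMSO at day 4 (vertical axis) of the 9 tested genes with all 6 libraries and with each library left out, filled where the adjusted p is under 0.05. Nfkb2 is filled in every fit. Relb is open in 3 fits, and Tnfrsf12a is filled only without DMSO replicate 1.

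The third comparison set 4-PBA at day 4 against day 0. It shares libraries with both others, so its values are given beside theirs and not as a separate test of them. Of the 9 genes tested, 6 were called, 4 higher and 2 lower, where 65.6% of all tested genes were called, 33.2% higher and 32.4% lower. At an unadjusted p under 0.05 it was again 6 of 9, against 67.9% of all tested genes, and the groups did not overlap for 7 of 9, against 81.8%. Relb was 2.10-fold higher in 4-PBA cells than at day 0 (log2 fold change 1.07, SE 0.0689, adjusted p 6.22e-16), against 2.52-fold with DMSO. Nfkb2 rose 1.21-fold (0.27, SE 0.0369, adjusted p 4.67e-08), against 1.39-fold. Map3k14 rose 2.36-fold (1.24, SE 0.0553, adjusted p 1.14e-19), against 2.58-fold.

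Birc2 was also called higher than at day 0 (0.22, SE 0.0693, adjusted p 0.00516), but not without day 0 replicate 1 (adjusted p 0.0588). Tnfrsf12a was lower, at 0.750 of its day 0 level (-0.42, SE 0.0386, adjusted p 3.11e-09), and Ltbr was at 0.801 (-0.32, SE 0.0413, adjusted p 1.92e-08). Traf3 (0.052, 95% confidence interval -0.032 to 0.14), Traf2 (-0.046, -0.16 to 0.070) and Chuk (0.016, -0.072 to 0.11) were not called. Traf2 with 4-PBA stood at 34.9 and 38.5 CPM around the day 0 values of 37.7 and 38.1 CPM.

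Levels of different genes were compared as CPM per kilobase of exon, with exon lengths from GENCODE M21. These lengths join the exons of all annotated transcripts of a gene, and the order of the genes depends on them. Tnfrsf12a was the most abundant of the 10 in each group, at 174 ± 2.19 per kilobase at day 0, 120.0 ± 9.35 with DMSO and 130 ± 1.30 with 4-PBA (SD, n = 2). Ltbr, Nfkb2, Chuk and Traf3 followed in this order in each group, with no overlap between neighbours. At day 0 the order went on with Traf2, Birc2, Map3k14 and Relb, of which Birc2 (4.02 ± 0.132) and Map3k14 (3.89 ± 0.303) overlapped. With DMSO, Map3k14 (9.98 ± 0.528) and Relb (8.64 ± 0.353) stood above Traf2 (8.19 ± 0.470) and Birc2 (4.98 ± 0.0757), and Relb and Traf2 overlapped. The order with 4-PBA was that with DMSO, with the same overlap. Birc3 was last in all 3 groups, at most 0.0305 ± 0.0114.

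Ratios within a library do not depend on its scaling. Per length, there were 0.103 and 0.0942 Relb for each Rela, the main canonical subunit gene, at day 0, then 0.210 and 0.233 with DMSO and 0.192 and 0.201 with 4-PBA. For each Nfkb1, which encodes p105 and p50, there were 1.55 and 1.58 Nfkb2 at day 0, 2.53 and 2.46 under DMSO, and 2.24 and 2.25 under 4-PBA. In both ratios the 4-PBA libraries lay between day 0 and DMSO, without overlap. The size of a ratio depends on the exon lengths used, 12061 bases for Nfkb1 and 4584 for Nfkb2. In CPM at day 0, Nfkb1 stood at 149 and Nfkb2 at 88.4 on average. Only the change of a ratio between groups is therefore read. Map3k14 per Traf3, the kinase gene over that of the adaptor that binds NIK, was 0.401 and 0.377 at day 0. It was 0.964 and 0.897 under DMSO and 0.863 and 0.905 under 4-PBA, so that the day 4 groups overlapped. The ratios are given as a description and were not tested. An exact permutation of 2 libraries against 2 cannot give a p-value under 0.333.

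**Figure D4:**
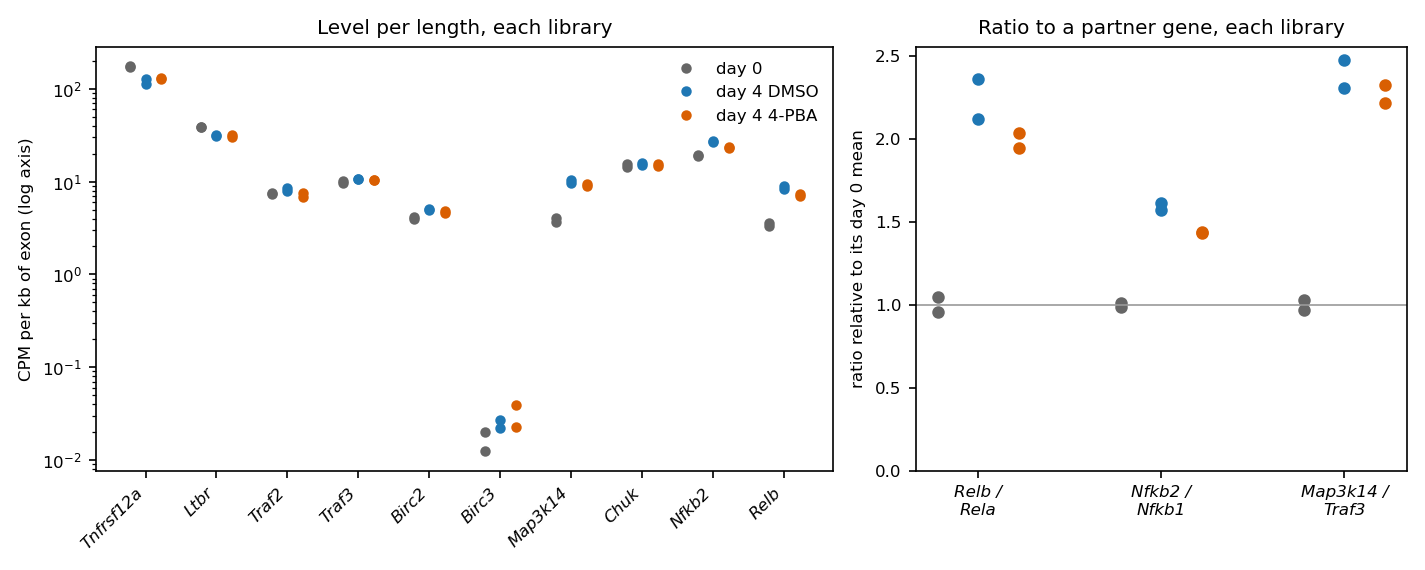
Left, CPM per kilobase of exon (log axis) of the 10 genes in each library. Right, ratio of Relb to Rela, Nfkb2 to Nfkb1 and Map3k14 to Traf3 per length in each library, divided by its day 0 mean (linear axis from 0). Relb per Rela is at 2.12 and 2.36 with DMSO and at 1.94 and 2.04 with 4-PBA, and Nfkb2 per Nfkb1 at 1.62 and 1.57 with DMSO and at 1.43 and 1.44 with 4-PBA.

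Other genes of the pathway came from a list of 28, of which 20 were tested. Between DMSO and day 0, 9 were called higher and 5 lower, and between 4-PBA and day 0, 6 higher and 5 lower. Between 4-PBA and DMSO 1 was called, Traf1, which was lower. Over all tested genes the shares called were 66.3%, 65.6% and 4.90% in these comparisons, and 14, 11 and 1 of 20 are close to them. Between 4-PBA and DMSO the median log2 fold change of the 20 was -0.011.

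Of 8 ligand genes 3 were tested, and those for CD40 ligand and CD70 (Cd40lg and Cd70) had 0 counts in all libraries. Tnfsf12, which encodes the Fn14 ligand TWEAK, stood at 6.88 ± 0.361 CPM at day 0, 7.18 ± 0.222 with DMSO and 7.86 ± 0.363 with 4-PBA (SD, n = 2), with no call in any comparison (adjusted p from 0.138 to 0.673). Per length, each Tnfsf12 came with 39.4 and 37.2 Tnfrsf12a at day 0, 26.1 and 24.5 under DMSO, and 25.8 and 24.5 under 4-PBA. Exons of Tnfsf12 overlap those of Tnfsfm13, a read-through gene on the same strand, so its level is uncertain. Tnfsfm13 itself was called higher with DMSO than at day 0 (0.51, SE 0.175, adjusted p 0.0113). Lta, the lymphotoxin-α gene, had 10 to 48 counts per library. Its call between DMSO and day 0 (log2 fold change 1.12, SE 0.505, adjusted p 0.0498) rested on DMSO replicate 2, without which the value was 0.55 (adjusted p 0.517), and it was lost in 12 of the 14 alternatives that tested it.

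Of 6 other receptor genes 3 were tested. Cd40, a receptor of the same family known mainly from B cells and other antigen-presenting cells, fell from 17.4 ± 0.428 CPM at day 0 to 5.31 ± 0.183 in DMSO cells at day 4 (log2 fold change -1.71, SE 0.0998, adjusted p 3.92e-17). With 4-PBA it stood at 4.19 ± 0.0222 CPM (-0.34 against DMSO, SE 0.113, adjusted p 0.0762). Cd27 was called higher with DMSO than at day 0 (2.38, SE 0.765, adjusted p 0.00662) at 2 to 36 counts per library, and not without DMSO replicate 2 (1.30, adjusted p 0.296). It was also called higher with 4-PBA than at day 0 (3.12, SE 0.731, adjusted p 3.33e-04), as in each of the 14 alternatives that tested it.

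Among 7 regulators of NIK and the TRAFs, Traf1, which encodes a TRAF that binds TRAF2 and is itself a known NF-κB target, was the gene called between 4-PBA and DMSO. It stood at 3.66 and 3.16 CPM at day 0, 1.82 and 1.78 under DMSO, and 0.693 and 1.16 under 4-PBA. From day 0 to day 4 it fell without the drug (log2 fold change -0.92, SE 0.206, adjusted p 1.96e-04). Under 4-PBA it was lower again than under DMSO (-0.96, SE 0.236, adjusted p 0.0108). The second value rested on few counts, 43 and 72 with 4-PBA, and without 4-PBA replicate 1 it was -0.63 (adjusted p 0.296). Otud7b, which encodes a deubiquitinase that stabilises TRAF3, rose from 118 ± 2.49 to 163 ± 4.66 CPM with DMSO (0.47, SE 0.0354, adjusted p 5.41e-14) and stood at 156 ± 4.60 CPM with 4-PBA.

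Of the 7 genes for p100 processing and turnover, 5 were called between DMSO and day 0, 4 higher and 1 lower, against the same 66.3% of all tested genes, and between 4-PBA and DMSO the values of all 7 lay from -0.085 to 0.039, with no call. Fbxw7, which encodes an F-box protein that targets p100 for degradation, rose from 24.7 ± 2.30 to 55.5 ± 0.303 CPM (1.17, SE 0.0552, adjusted p 1.27e-19). Btrc, which encodes the β-TrCP protein that recognises phosphorylated p100, rose from 21.9 ± 0.455 to 32.1 ± 1.29 CPM (0.55, SE 0.0615, adjusted p 7.90e-10). With 4-PBA they stood at 56.7 ± 1.22 and 30.3 ± 0.266 CPM.

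Of 9 genes of the canonical pathway kept for comparison, 7 were called between DMSO and day 0, 4 higher and 3 lower, where 66.3% of all tested genes were called, 33.8% higher and 32.6% lower. Nfkbie, which encodes the inhibitor IκBε, rose (1.17, SE 0.111, adjusted p 1.97e-11) and Ikbkg, which encodes NEMO, fell (-0.45, SE 0.0419, adjusted p 8.86e-12). Between 4-PBA and DMSO 1 of 9, Tnfaip3, which encodes the feedback inhibitor A20, was called, at 43.2 ± 3.21 against 52.5 ± 1.15 CPM (-0.28, SE 0.0503, adjusted p 3.85e-04), and not without 4-PBA replicate 2 (-0.21, adjusted p 0.0735). Rela (-0.088, 95% confidence interval -0.16 to -0.014) and Nfkb1 (-0.054, -0.12 to 0.015) were not called. All 9 values lay below 0, with a median of -0.088. Of all tested genes, 4.90% were called in this comparison.

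Of 6 genes known as targets of RelB and p52 in lymphoid stroma 2 were tested. Glycam1, Ccl19 and Ccl21a had 0 counts in all libraries, and Madcam1 had 2 counts in 1 library. Cxcl12, a chemokine also made by stromal cells, was called lower with DMSO than at day 0 (-0.28, SE 0.0778, adjusted p 0.00219) and higher with 4-PBA than with DMSO (0.28, SE 0.0773, adjusted p 0.0242). Its CPM was 19.1 and 18.1 at day 0, 16.5 and 14.3 under DMSO, and 18.7 and 18.7 under 4-PBA. Without DMSO replicate 2 neither call held (-0.17, adjusted p 0.0830, and 0.18, adjusted p 0.279). The second was also lost without 4-PBA replicate 1 (0.148), without 4-PBA replicate 2 (0.160) and in the DESeq2 Wald test (0.0520). Cxcl13 rose from 0.111 ± 0.0761 to 0.848 ± 0.0556 CPM with DMSO (3.02, SE 0.494, adjusted p 1.78e-06) and stood at 0.717 ± 0.194 with 4-PBA.

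The genes with the profiles most like those of Relb and Nfkb2 over the 6 libraries were found as those with the smallest root mean square difference in centred log2 CPM among 10680 genes with a mean of at least 5 CPM. For Relb these were Mtm1 (0.042), Sbk1 (0.045), Egln3 (0.049), Pde10a (0.054) and Tbx15 (0.058). For Nfkb2 they were Zbtb43 (0.019), Pick1 (0.022), Zfp281 (0.031), Wdr7 (0.032) and Stradb (0.034). Egln3, which encodes a prolyl hydroxylase, stood at 26.3 CPM at day 0, 63.1 with DMSO and 53.0 with 4-PBA on average. The points of each profile share libraries and depth, so this is a description of likeness in level alone.

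In GENCODE M21, exons of Nfkb2 overlap those of Psd and AC114539.1 on the opposite strand over 830 of 4584 bases, and those of Map3k14 overlap 1700028N14Rik over 135 of 6550 bases. The library kit keeps strand, but whether the counting used it is not given in the sources used here. Psd, looked up after the values of Nfkb2 were seen, had 84 to 129 counts per library, where Nfkb2 had 4259 to 9030, and 1700028N14Rik had at most 8. Psd was called in none of the 3 comparisons (adjusted p 0.933, 0.338 and 0.117). AC114539.1 was not among the symbols of the count table, so its level could not be looked up. Exons of the other 8 genes overlap no exons of another gene in that annotation.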

How the data were processed

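The authors deposited a table of raw counts per gene symbol with 1 column per library. Per the labels, RNA was made into libraries with a directional kit, and per the submitters' processing notes the genome build was GRCm39. The aligner, counting tool, annotation and strand setting are not given in the sources used here. The 6 columns were matched to samples by the names in the labels.

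The tests ran on these counts in edgeR 4.0.16 (R 4.3.3), with filterByExpr, TMM scaling, 1 mean per group over all 6 libraries (3 residual degrees of freedom), robust quasi-likelihood fits and Benjamini-Hochberg adjustment over 17433 genes. Standard errors are the size of the log2 fold change over the square root of F. CPM were computed from the counts with TMM-scaled library sizes. The precision of a fold change rests on counting error and on a dispersion that is shared across genes (median prior degrees of freedom 30.4). With 2 against 2, permutation cannot give a p-value under 0.333. The method was tested on simulated data. The members and gene lists were chosen with earlier results of these data known. Genes of the other lists were named if called between 4-PBA and DMSO, as the 2 largest called changes per list between DMSO and day 0, or as Tnfsf12, Rela and Nfkb1. Alternatives were other scalings, filters, DESeq2 1.42.0, limma-voom (limma 3.58.1), pairwise fits, a replicate block, an adjusted p under 0.01 and leaving out each library. Figures used Python 3.11.15 and matplotlib 3.10.9.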

Additional observations from a re-analysis of the deposited data

How the results depend on the processing

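Over 15 alternatives the number of pathway genes called stayed within 1.5 times the reported one in both comparisons with day 0. Between 4-PBA and DMSO it ran from 1 to 3 when a library was left out, the 1 being Nfkb2 without 4-PBA replicate 1, and the number of all genes called ran from 295 without 4-PBA replicate 2 and 341 without 4-PBA replicate 1 to 1194, around 855. At an adjusted p under 0.01, 424 genes were called. With library size only, 51.5% of the calls between 4-PBA and DMSO were higher, against 43.4% with TMM. With the replicate block, 768 genes and 2 pathway genes were called between 4-PBA and DMSO, and Traf2 was not among them (adjusted p 0.0700). The deviations of same-numbered libraries correlated at -0.028, -0.0031 and -0.012, so the numbers were not treated as pairs. Values that changed sign belonged to genes that were not called in that comparison. Against DMSO these were Ltbr (0.029 without 4-PBA replicate 2, from -0.061 to 0.029 over the 6 left-out libraries), Lta (0.15 without DMSO replicate 2, from -0.80 to 0.15) and Cxcl13 (0.011 without 4-PBA replicate 1, from -0.54 to 0.011). Between 4-PBA and day 0 they were Chuk (-0.0019 with library size only, -0.035 without day 0 replicate 1, -0.019 without 4-PBA replicate 2, and up to 0.074), Traf2 (0.028 without 4-PBA replicate 1, and down to -0.12) and Cxcl12 (-0.011 with library size only, -0.031 without day 0 replicate 2, and up to 0.041). The cause was not tested. A fit that leaves out a library has 1 in that group, which is assumed to vary like the others. Depth limited Birc3: without the filter its log2 fold change between 4-PBA and DMSO was 0.30 (95% confidence interval -1.32 to 1.93).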
